A study of Mus musculus with 20 samples.

Results

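The genes described here are 9 that control the breakdown of stored fat in mouse epididymal white adipose tissue (eWAT): Pnpla2, Lipe, Mgll, Abhd5, G0s2, Adrb1, Adrb3, Adora1 and Pde3b. They were taken by symbol from a table of 55401 genes, and all 9 passed the filter on low counts that left 15986 genes for testing. PolyA RNA was sequenced in 20 libraries of this fat pad, 10 from mice on random food restriction (Restricted), which joins intermittent fasting with a 5% cut in calories, and 10 from mice on the control diet (Control). The labels carry a further mark for contamination by spermatocytes, which is Yes for 3 Restricted and 7 Control libraries and No for 7 Restricted and 3 Control libraries. The labels name neither strain, sex or age, nor the length of the regime, the feeding state at collection or whether each library came from a separate animal, so p-values measure the spread between these libraries, which may be technical in part.

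Fat cells store triglyceride in a droplet and release it as fatty acids and glycerol through a chain of lipases. PNPLA2 (adipose triglyceride lipase) removes a fatty acid from triglyceride, LIPE (hormone-sensitive lipase) acts on the resulting diglyceride, and MGLL (monoglyceride lipase) completes the release of glycerol. ABHD5 activates PNPLA2 and G0S2 inhibits it. Catecholamines start the chain in mouse adipocytes mainly through the receptor ADRB3, with a smaller part for ADRB1, by raising cyclic AMP and activating protein kinase A, whereas the adenosine receptor ADORA1 lowers cyclic AMP through an inhibitory G protein and the phosphodiesterase PDE3B, which insulin activates, degrades it.

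Libraries held 14306528 to 44061508 counts, and at least 99.629% of them lay in tested genes. No pair of libraries of a diet agreed within sampling noise (chi-square per degree of freedom of at least 9.93 among Restricted and 13.1 among Control pairs). The defining transcripts of adipocytes were abundant in all libraries. Their summed level over 10 markers was 48445 to 61310 CPM (counts scaled to a common library size, median 57718) in Restricted and 54036 to 66598 CPM (median 62135) in Control libraries. By diet, 1 of the 10, Lep, was called higher and 1, Acvr1c, lower, against 6.31% and 7.29% of all genes. The RNA integrity number averaged 7.18 ± 0.399 in Restricted (SD, n = 8) and 7.41 ± 0.267 in Control libraries (SD, n = 9). Libraries stood apart in 2 ways. Transcripts of skeletal muscle were plain in 6 libraries, Restricted 1 and Control 1 to 5, with a mean over 10 markers of at least 5.55 log2 CPM, against at most 2.02 in the other 14. The contamination mark parted the libraries on the first principal component (44.5% of the variance), but the mean of 12 germ cell markers overlapped between the marks, with −2.46 to 2.63 log2 CPM for Yes and −3.18 to 1.31 for No. Control 6, marked No, had the 1.31. Diet results are given below also without these libraries or with their markers in the model.

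Of the 9 genes, 1 passed the test for diet: Adora1 was higher in Restricted libraries. The other 8 did not pass, and Adrb3 came closest. The test was edgeR's quasi-likelihood test on counts with the contamination mark in the model and Benjamini-Hochberg adjustment over all 15986 genes at 0.05, which called 13.6% of all genes (6.31% higher and 7.29% lower). A share of 1 in 9 is near that background. The ranges of the 2 diets overlapped for all 9 genes, while 0.951% of all genes had diets that did not overlap.

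**Figure D1:**
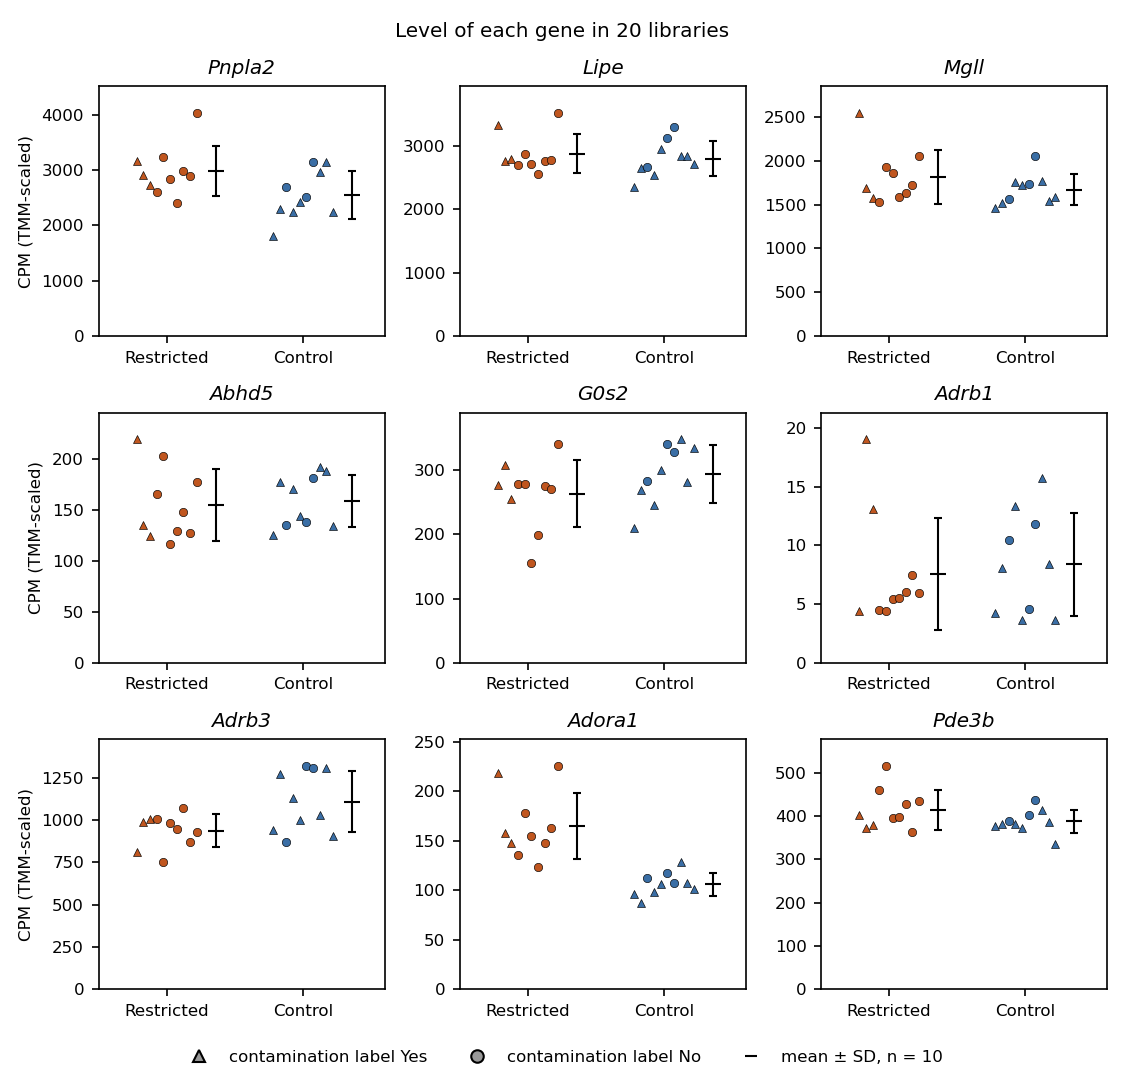
The level of each gene is plotted as CPM (y axis, starting at 0) in the 10 Restricted and the 10 Control libraries, with triangles for libraries marked Yes and circles for those marked No, and a bar for the mean ± SD. For Adora1, 9 Restricted libraries lie above the highest Control library, and for the other 8 genes the 2 diets overlap more widely.

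Levels spanned a wide range. Per kilobase of the deposited gene length, Pnpla2 had the highest level in both diets, at 988 ± 147 CPM per kilobase in Restricted and 844 ± 146 in Control libraries (SD, n = 10 each). Lipe followed at 489 ± 52.0 CPM per kilobase in Restricted and 476 ± 47.2 in Control libraries, and its lowest library overlapped the highest of Mgll. Mgll, G0s2 and Adrb3 overlapped one another, with means of 277 to 357 CPM per kilobase in Restricted and 328 to 338 in Control libraries. Pde3b, at 45.5 ± 5.08 CPM per kilobase in Restricted and 42.5 ± 2.90 in Control libraries, lay apart from the genes above and below it. Adora1 and Abhd5 overlapped, and their means stood in the opposite order in the 2 diets: 28.6 and 25.9 CPM per kilobase in Restricted libraries, and 18.4 and 26.6 in Control libraries. Adrb1 was the lowest at 2.24 ± 1.41 CPM per kilobase in Restricted and 2.48 ± 1.30 in Control libraries, and the level of Adrb3 exceeded that of Adrb1 in each of the 20 libraries.

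The lipases did not pass the test for diet. Pnpla2 (chromosome 7, 141455198 to 141460743, plus strand, GRCm38) had a lowest, median and highest level of 2414, 2907 and 4038 CPM in Restricted libraries and of 1802, 2468 and 3154 CPM in Control libraries. Most Restricted libraries were in the upper part, 9 of 10 above the Control median, yet only 3 were above the highest Control library. Its log2 fold change was 0.19 ± 0.107 (SE, adjusted p = 0.261), and 0.06 in the 14 libraries without plain muscle transcripts (edgeR, adjusted p = 0.845; 0.123 to 0.845 over the alternatives run).

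Lipe (chromosome 7, 25379527 to 25398710, minus strand) ranged over 2556, 2773 and 3527 CPM in Restricted libraries and 2347, 2779 and 3303 CPM in Control libraries, as lowest, median and highest. The medians nearly coincided, and Restricted 1 and Restricted 10 alone lay above the highest Control library. Its log2 fold change was 0.02 ± 0.0752 (SE, adjusted p = 0.889). Mgll (chromosome 6, 88724412 to 88828360, plus strand) ranged over 1531, 1706 and 2547 CPM in Restricted and 1459, 1655 and 2052 CPM in Control libraries. Here too the same pair of Restricted libraries stood above all Control libraries, and the log2 fold change was 0.12 ± 0.0934 (SE, adjusted p = 0.430). Without Restricted 1 and 10 (Pnpla2 and Lipe were highest in Restricted 10 and Mgll in Restricted 1), the log2 fold changes were 0.10 for Pnpla2, −0.067 for Lipe and −0.030 for Mgll.

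The protein partners of PNPLA2 did not pass either. Abhd5, the activator (chromosome 9, 122351608 to 122381524, plus strand), ranged over 116, 142 and 219 CPM in Restricted libraries and 125, 157 and 192 CPM in Control libraries. Restricted libraries lay both above and below the whole Control range, 2 on each side, and the log2 fold change was −0.0082 ± 0.128 (SE, adjusted p = 0.978). G0s2, the inhibitor (chromosome 1, 193272161 to 193273217, minus strand), ranged over 155, 276 and 341 CPM in Restricted and 209, 292 and 348 CPM in Control libraries. In G0s2, 2 Restricted libraries exceeded the Control median, and the lowest values were those of Restricted 6 and Restricted 7; the log2 fold change was −0.16 ± 0.124 (SE, adjusted p = 0.409). It was −0.11 without Restricted 6, −0.30 both in the 14 libraries without plain muscle transcripts and among the libraries marked No, and −0.016 among those marked Yes, and passed in none of these fits.

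Adora1, the adenosine receptor that restrains lipolysis, was higher in Restricted libraries. Its lowest, median and highest levels were 123, 156 and 226 CPM in Restricted libraries and 87.5, 107 and 129 CPM in Control libraries. All 10 Restricted libraries were above the Control median and 9 were above the highest Control library, Control 8 at 128.9 CPM; the other one was Restricted 7 at 123.1 CPM. On the log2 scale Restricted libraries exceeded Control libraries by 0.64 ± 0.105 for this gene of chromosome 1 (134199223 to 134235431, minus strand; SE, n = 10 libraries each, adjusted p = 0.000466). Restricted 10 and Restricted 1 had the highest levels, 225.7 and 218.6 CPM, and the other 8 Restricted libraries lay between 123.1 and 178.0 CPM. Without both, the log2 fold change was 0.48 ± 0.0796 (SE, adjusted p = 0.00098, a choice made after seeing the data). Restricted 10 and Restricted 1 also had the highest mean of muscle markers among Restricted libraries (2.02 and 7.28 log2 CPM). Their mean of adipocyte markers was the lowest there (11.2 and 11.0 log2 CPM). Restricted 10 is kept among the 14 libraries without plain muscle transcripts. Leaving out each library in turn gave 0.54 to 0.67, and the call held each time, also without Control 6 (0.67, adjusted p = 0.000921).

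Marker levels of other cells moved with diet beside Adora1. The summed macrophage markers were 711 to 1291 CPM in Restricted and 1173 to 1679 CPM in Control libraries, with 7 of 8 called lower. Called lower as well were 3 of 7 markers of progenitors and fibroblasts and 2 of 6 of endothelium, against 7.29% of all genes. The summed muscle markers were 36.5 to 3378 CPM (median 56.0) in Restricted and 22.7 to 2098 CPM (median 514) in Control libraries. By edgeR, 0 of 7 tested markers were called, against 13.6% of all genes. An unadjusted p under 0.05 was found for 1 of the 7 and for 4517 of all 15986 genes. The median log2 fold change of the tested markers was −1.86, and muscle transcripts were plain in Restricted 1 and Control 1 to 5. No marker was at 0 in all libraries. Summed germ cell markers were 3.12 to 133 CPM (median 5.28) in Restricted and 2.87 to 43.1 CPM (median 13.7) in Control libraries. Of the 2 tested markers, 1 was called higher, against 6.31% of all genes, and the other was lower without a call. Sycp3, of the meiotic chromosome axis, averaged 5.21 ± 2.82 CPM in Restricted and 2.03 ± 0.514 CPM in Control libraries (log2 fold change 1.37, edgeR, adjusted p = 0.000912). Spata18 was at −0.32 on the log2 scale (edgeR, adjusted p = 0.754). Summed epididymis markers were 0.326 to 2.46 CPM (median 1.08) in Restricted and 0.213 to 262 CPM (median 0.854) in Control libraries. The mean over these markers was highest in Control 6, at 0.948 log2 CPM. In bulk tissue, a change in the number of cells of a type and a change in RNA per cell cannot be told apart. In the 14 libraries without plain muscle transcripts the log2 fold change of Adora1 was 0.49 ± 0.126 (SE, edgeR, adjusted p = 0.0345). It was 0.59 with the germ cell index in place of the mark (adjusted p = 0.00291) and 0.50 with the adipocyte index as a term (adjusted p = 0.00831). The part of macrophages, progenitors and endothelium in the difference was not tested.

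By contamination mark, Adora1 had 158 CPM as the median of 3 Restricted libraries marked Yes and 101 CPM as that of 7 Control libraries marked Yes. In libraries marked No, the medians were 155 CPM over 7 Restricted and 112 CPM over 3 Control libraries. Within each mark the diets did not overlap: the lowest Restricted library was at 147 CPM and the highest Control library at 129 CPM among those marked Yes, and at 123 and 118 CPM among those marked No. Such a gap is easier to reach with 3 against 7 libraries than over all 20, where the ranges of Adora1 overlapped. How many of all genes show it within a mark was not counted. The fitted difference was 0.76 ± 0.134 on the log2 scale in libraries marked Yes alone (SE, edgeR, adjusted p = 0.0270) and 0.52 ± 0.153 in those marked No alone (SE, edgeR, adjusted p = 0.0868), where it missed the threshold. The difference between them, 0.23 ± 0.209, did not pass edgeR's test of the product term (adjusted p = 0.871). Adora1 was called in 18 of 19 alternatives other than those that leave out 1 library, with adjusted p of 7.34e-07 to 0.0868.

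**Figure D2:**
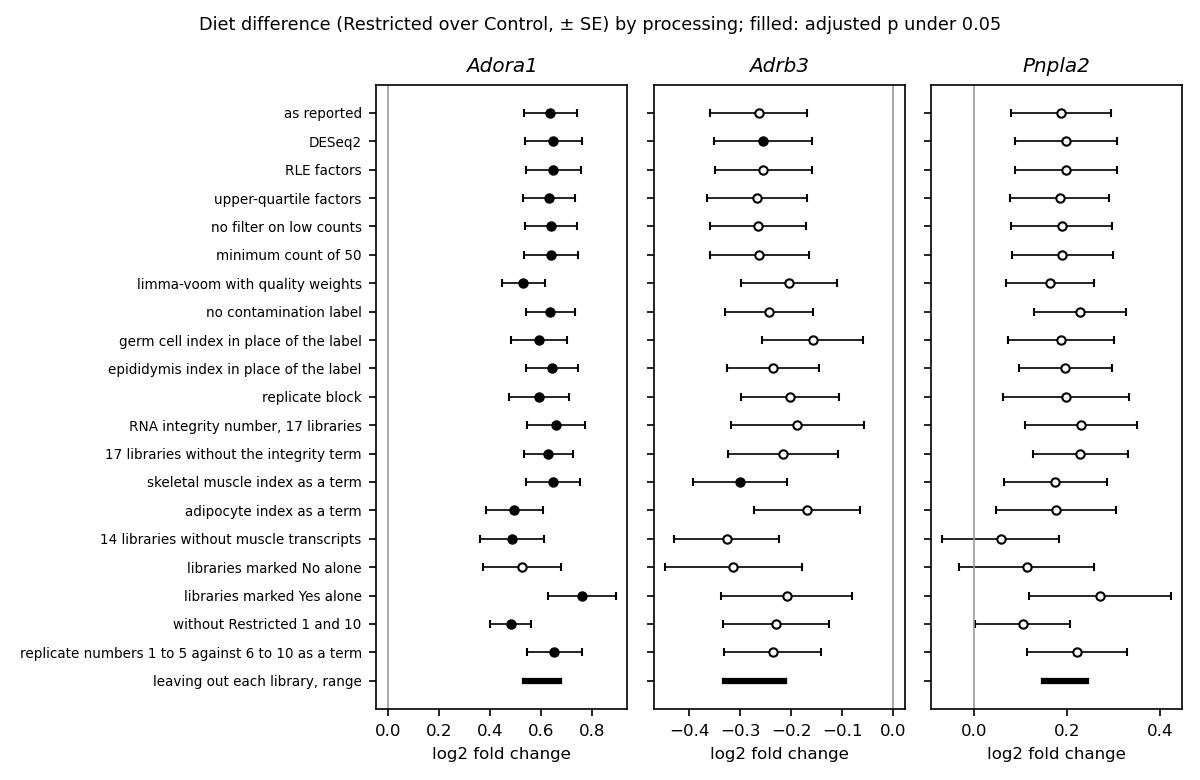
The log2 fold change of Adora1, Adrb3 and Pnpla2 (x axis, Restricted over Control, ± SE) is plotted under each way of processing (y axis), with filled points where the adjusted p was under 0.05 and a thick line for the range over fits that leave out 1 library. Adora1 stayed between 0.48 and 0.76, Adrb3 between −0.33 and −0.16, and Pnpla2 between 0.06 and 0.27.

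Promoter windows of 250 bases that end at annotated starts were read from RefSeq (build GRCm38.p6), which held 7 of the 9 genes with 10 windows in all; Adrb3 and Pde3b were not matched. Printed below are the windows of Adora1 as the called gene, of Pnpla2 as the most abundant one, and of Mgll as one that holds a searched motif. They lie at chr1:134235458-134235707 on the minus strand for Adora1, at chr7:141454938-141455187 on the plus strand for Pnpla2 and at chr6:88724162-88724411 on the plus strand for Mgll, each upstream of the gene and outside its annotated exons. Capitals mark the E-box CACGTG.
Adora1 promoter: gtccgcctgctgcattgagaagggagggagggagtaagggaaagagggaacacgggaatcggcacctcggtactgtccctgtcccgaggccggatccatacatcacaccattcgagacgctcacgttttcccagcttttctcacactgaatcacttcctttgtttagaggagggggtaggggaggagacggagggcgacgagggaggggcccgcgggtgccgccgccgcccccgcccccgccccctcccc
Pnpla2 promoter: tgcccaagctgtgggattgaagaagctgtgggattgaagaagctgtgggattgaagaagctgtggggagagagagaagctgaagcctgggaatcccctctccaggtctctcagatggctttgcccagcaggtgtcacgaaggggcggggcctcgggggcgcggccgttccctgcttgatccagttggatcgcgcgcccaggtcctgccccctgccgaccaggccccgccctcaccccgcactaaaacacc
Mgll promoter: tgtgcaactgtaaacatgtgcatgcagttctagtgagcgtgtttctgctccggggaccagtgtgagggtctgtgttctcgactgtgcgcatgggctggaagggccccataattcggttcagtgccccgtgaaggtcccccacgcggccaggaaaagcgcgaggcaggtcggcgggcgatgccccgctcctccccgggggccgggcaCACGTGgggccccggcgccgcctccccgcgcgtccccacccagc
On either strand, CACGTG was in 2 of the 10 windows (Lipe and Mgll), against 6.02% of 32851 promoter windows of the same length. The 32851 leave out the windows of a single chromosome, which holds none of the 9 genes. TGACG, a core of the site bound by CREB, was in 3 of the 10 (Abhd5, G0s2 and Adrb1), against 17.8% of the 32851. AGGTCA, a part of the sites of nuclear receptors, was in 1 of the 10 (Abhd5), against 4607 of the 32851. TGACG and AGGTCA share the run TGAC across strands. Neither window of Adora1 held any of these motifs, which says nothing of the factors themselves.

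The adrenergic receptors did not pass the test for diet. Adrb3 (chromosome 8, 27225776 to 27250616, minus strand) had a lowest, median and highest level of 753, 965 and 1073 CPM in Restricted libraries and of 873, 1079 and 1319 CPM in Control libraries. No Restricted library reached the Control median, and 5 Control libraries lay above the highest Restricted one. A log2 fold change of −0.26 was fitted (± 0.0949 SE, p = 0.0108, adjusted p = 0.0672). The adjusted p was 0.0470 with DESeq2 and 0.0352 in edgeR with the muscle index as a term. It was 0.0575 to 0.469 over the other alternatives, apart from those that leave out 1 library. Of the 20 edgeR fits that leave out 1 library, only 1 passed (without Control 3, adjusted p = 0.0256). Over these fits the log2 fold change was −0.33 to −0.21, with an adjusted p of up to 0.185.

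Adrb3 shares its place with Gm45470, an antisense gene with a mean of 3077 counts per library against 25082 for Adrb3. Gm45470 itself averaged 115 ± 18.0 CPM in Restricted and 136 ± 20.1 CPM in Control libraries (SD, n = 10 each; log2 fold change −0.33, adjusted p = 0.0170). Whether counting used strand is not stated in the sources used here, so reads of this pair cannot be told apart with certainty. For the other 8 genes, annotated overlapping partners had at most 227 counts per library on average (4732471J01Rik at Lipe, and Lamb3 at G0s2 with 185).

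Adrb1 (chromosome 19, 56722199 to 56733113, plus strand) rested on 78 to 403 counts in Restricted and 88 to 542 counts in Control libraries. Its lowest, median and highest levels were 4.38, 5.75 and 19.0 CPM in Restricted libraries and 3.60, 8.24 and 15.8 CPM in Control libraries. The spread was wide in both diets, with a coefficient of variation of 63.1% in Restricted and 52.3% in Control libraries, against 6.83% to 23.0% for the other 8 genes. By diet the difference was −0.030 ± 0.314 (SE, adjusted p = 0.967). It was 0.58 ± 0.504 in libraries marked Yes alone and −0.66 ± 0.243 in those marked No alone (SE, edgeR, adjusted p = 0.561 and 0.162), and the difference of 1.25 had a p of 0.0518 in edgeR's test of the product term (adjusted p = 0.859).

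Pde3b, the phosphodiesterase through which insulin restrains lipolysis (chromosome 7, 114415281 to 114539251, plus strand), ranged over 363, 399 and 515 CPM in Restricted libraries and 336, 384 and 436 CPM in Control libraries. It varied less among Control libraries than any other of the 9 genes, and Restricted 5 and Restricted 4 lay above them all. Its log2 fold change was 0.04 ± 0.0609 (SE, adjusted p = 0.678). Leaving out each library gave 0.026 (without Control 3) to 0.063 (without Control 7), and the other alternatives 0.013 (the 14 libraries) to 0.098 (no contamination mark), with no call.

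**Figure D3:**
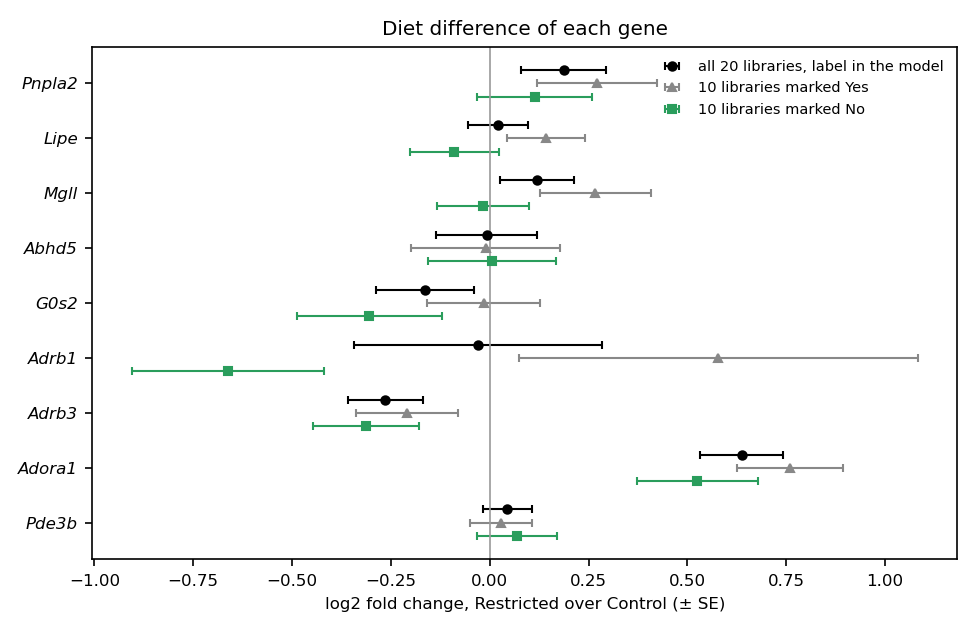
The log2 fold change of each gene (x axis, Restricted over Control, ± SE) is plotted for all 20 libraries with the contamination mark in the model, for the 10 libraries marked Yes and for the 10 marked No. Adora1 was above 0 in all 3 fits and Adrb3 below 0 in all 3, while Lipe, Mgll, Abhd5 and Adrb1 changed sign between the marks.

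None of the 9 genes was called by the contamination mark itself. Among all genes 5.3% were called, 5.04% higher and 0.269% lower in libraries marked Yes. An unadjusted p under 0.05 was found in edgeR for 1 of the 9 and for 2158 of all 15986 genes. DESeq2 called 0 of the 9 as well. For Yes over No, the log2 fold change was smallest in size for Adora1 (0.00018) and largest for Adrb1 (0.50 ± 0.315, SE). Pde3b had the lowest p by mark (log2 fold change −0.13 ± 0.0609, SE, p = 0.0412, adjusted p = 0.340). The product of mark and diet called 0 of the 15986 genes (0%) in edgeR, hence 0 of the 9, with 871 genes at an unadjusted p under 0.05 and 1 gene called by DESeq2.

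Ratios within a library do not depend on scaling. The log2 ratio of Adrb3 to Adora1 counts was 2.52 ± 0.388 in Restricted and 3.37 ± 0.293 in Control libraries (SD, n = 10 each), a difference of −0.85. It reached at most 2.94 in Restricted libraries and was at least 2.96 in Control libraries, so the diets did not overlap, though narrowly. How many other pairs of genes would part the diets in this way was not counted. The log2 ratio of Pnpla2 to its inhibitor G0s2 was 3.52 ± 0.270 in Restricted and 3.11 ± 0.206 in Control libraries, a difference of 0.41, with overlapping ranges of 3.23 to 4.197 in Restricted and 2.74 to 3.48 in Control libraries. For Adrb3 to Adrb1 it was 7.13 ± 0.663 in Restricted and 7.22 ± 0.788 in Control libraries. These pairs were picked with earlier results known and are given without a test.

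**Figure D4:**
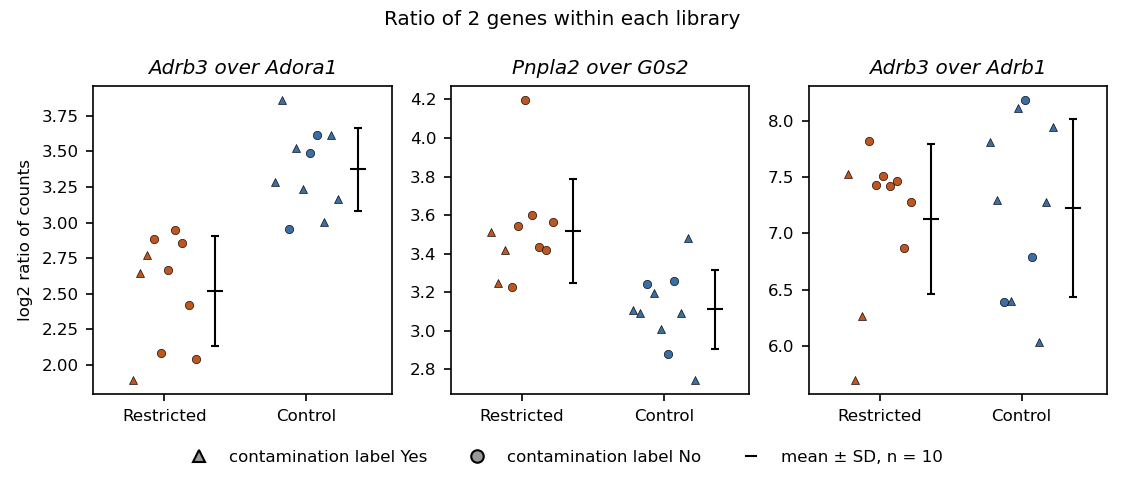
The log2 ratio of counts of 2 genes within a library (y axis, not starting at 0) is plotted for the 10 Restricted and 10 Control libraries, with triangles for libraries marked Yes, circles for No and a bar for the mean ± SD. The ratio of Adrb3 to Adora1 is 1.89 to 2.94 in Restricted and 2.96 to 3.86 in Control libraries, and the other 2 ratios overlap.

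Across the 20 libraries, after centring within the contamination mark, the lipases varied together: Pearson's r was 0.77 between Lipe and Mgll, 0.75 between Pnpla2 and Lipe and 0.61 between Pnpla2 and Mgll. Abhd5 went most closely with Pde3b (0.75), and Adora1 with Pnpla2 (0.71) and Mgll (0.65). Adrb3 ran against Adora1 (−0.57), and the r of Adrb1 with the other 8 genes was −0.047 to 0.32. These values describe libraries that share diet, muscle content and scaling factor, and are given without a test. Among 9492 genes with a mean of at least 10 CPM, the patterns most like that of Adora1 were those of Cisd1, an iron-sulphur protein of the outer mitochondrial membrane (0.95), Slc48a1, a haem transporter (0.95), and Rbp4, the retinol-binding protein (0.94). Rbp4, for example, averaged 742 ± 143 CPM in Restricted and 520 ± 56.5 CPM in Control libraries (SD, n = 10 each). Most like Adrb3 were Mapk1ip1 (0.86) and the class I genes H2-Q6 (0.84) and H2-Q7 (0.79), near-identical copies whose reads counting can split. Most like Pnpla2 were Lpin1, a phosphatidate phosphatase (0.91), Glmp, a lysosomal membrane glycoprotein (0.90), and Arl2, a small GTPase (0.89).

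Around these 9 genes, 82 others of the lipolysis pathway were listed in 7 groups, and 81 were tested (all but Adora3). Of the 81, 10 were called higher and 7 lower, 21.0% against 13.6% of all genes, with a median log2 fold change of 0.0145 against 0.0088 over all genes. With the RNA integrity number as a term, in the 17 libraries that have one, 1 was called higher and 1 lower, 2.47% against 2.42% of all genes, and without that term in the same 17 libraries 4 and 4, 9.88% against 8.93%. In the 14 libraries without plain muscle transcripts 2 were called higher and 5 lower (8.64% against 5.59% of all genes), with the germ cell index in place of the mark 3 and 4 (8.64% against 6.46%), and without Restricted 1 and 10 7 and 7 (17.3% against 10.8%). In libraries marked No alone 2 were called higher and 3 lower (6.17% against 2.41%). In libraries marked Yes alone edgeR called 0 of the 81, against 1.4% of all genes. In that fit 20 of the 81 had an unadjusted p under 0.05, and the share of all genes below it was not counted. In the fit of all 20 libraries 28 of the 81 had an unadjusted p under 0.05, and 4517 of all 15986 genes.

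Of 15 droplet proteins and other hydrolases, 5 were called higher and 0 lower, against 6.31% and 7.29% of all genes. The median log2 fold change was 0.070. Cidea, a droplet protein that brown and beige adipocytes make in quantity, averaged 10.8 ± 7.80 CPM in Restricted and 3.50 ± 1.20 CPM in Control libraries (SD, n = 10 each). Its log2 fold change of 1.63 became 1.07 without Restricted 1 and 10 (adjusted p = 0.0243) and 1.25 in the 14 libraries (adjusted p = 0.153). Ces1d, a carboxylesterase with triglyceride hydrolase activity, averaged 2573 ± 494 CPM in Restricted and 1727 ± 317 CPM in Control libraries, a log2 fold change of 0.48 that was 0.63 in the 14 libraries (adjusted p = 0.00348). Fabp4, the fatty acid carrier that binds LIPE, and Abhd6, a monoglyceride hydrolase, had log2 fold changes of 0.31 (adjusted p = 0.0150) and 0.25 (adjusted p = 0.0144), and neither passed in the 14 libraries (0.137 and 0.0925). Ces1f, the fifth, is named to complete the count (0.38, adjusted p = 0.0282). Without Restricted 3 the adjusted p of Ces1d was 0.0562, and Ces1f missed the threshold without Restricted 3, Control 6 or Control 7; the Ces1 genes lie in a cluster of similar copies whose reads counting can split. The perilipins Plin1, Plin2, Plin4 and Plin5 were not among the calls.

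Of 20 stimulatory receptors, G protein subunits, cyclases and subunits of protein kinase A, 1 was called higher and 2 lower. Among all genes these shares were 6.31% and 7.29%. The median log2 fold change of the 20 was 0.0073. Adcy7, an adenylyl cyclase abundant in blood cells, averaged 34.0 ± 4.71 CPM in Restricted and 45.5 ± 5.01 CPM in Control libraries (log2 fold change −0.47, adjusted p = 0.000663), and −0.39 in the 14 libraries (adjusted p = 0.0282); macrophage markers were lower too, and their part in its level was not tested. Adcy9, another cyclase (−0.24, adjusted p = 0.0419), and Prkar2b, the regulatory subunit of protein kinase A that adipocytes favour (0.24, adjusted p = 0.0425), lost the call in 14 and 10 of the 20 fits that leave out 1 library. Over those fits the log2 fold change stayed at −0.30 to −0.21 for Adcy9 (adjusted p up to 0.110) and at 0.19 to 0.26 for Prkar2b (up to 0.123). Adora2a, the stimulatory adenosine receptor, averaged 9.82 ± 1.41 CPM in Restricted and 12.6 ± 2.71 CPM in Control libraries and did not pass (log2 fold change −0.37, adjusted p = 0.0511).

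Of 19 tested inhibitory receptors, inhibitory G protein subunits and phosphodiesterases, 2 were called higher and 2 lower, against 6.31% and 7.29% of all genes. The median log2 fold change was 0.085. Ptger3, a prostaglandin receptor that like ADORA1 couples to inhibitory G proteins, averaged 108 ± 28.8 CPM in Restricted and 58.8 ± 21.4 CPM in Control libraries. Its log2 fold change of 0.83 ± 0.201 (SE, adjusted p = 0.00918) was 0.65 without Restricted 1 and 10 (adjusted p = 0.0568) and 0.51 in the 14 libraries (adjusted p = 0.210). Pde3a, a phosphodiesterase related to PDE3B and typical of heart and vessels, averaged 6.89 ± 1.47 CPM in Restricted and 10.1 ± 2.51 CPM in Control libraries (log2 fold change −0.74, adjusted p = 0.000618), and −0.69 in the 14 libraries (adjusted p = 0.00808). The endothelial markers Vwf and Tek were lower as well, and their part in the levels of Pde3a was not tested. By contamination mark, Pde3a was also called lower in libraries marked Yes (log2 fold change −0.45, edgeR, adjusted p = 0.0326), against 0.269% of all genes. Pde7a, a phosphodiesterase specific for cyclic AMP, was at 0.33 on the log2 scale (adjusted p = 0.0275, and 0.0812 without Restricted 1), and Gnao1, a G protein subunit known from neurons, at −0.43 (adjusted p = 0.0414), lost in 14 of the 20 fits that leave out 1 library, over which it was −0.51 to −0.33.

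**Figure D5:**
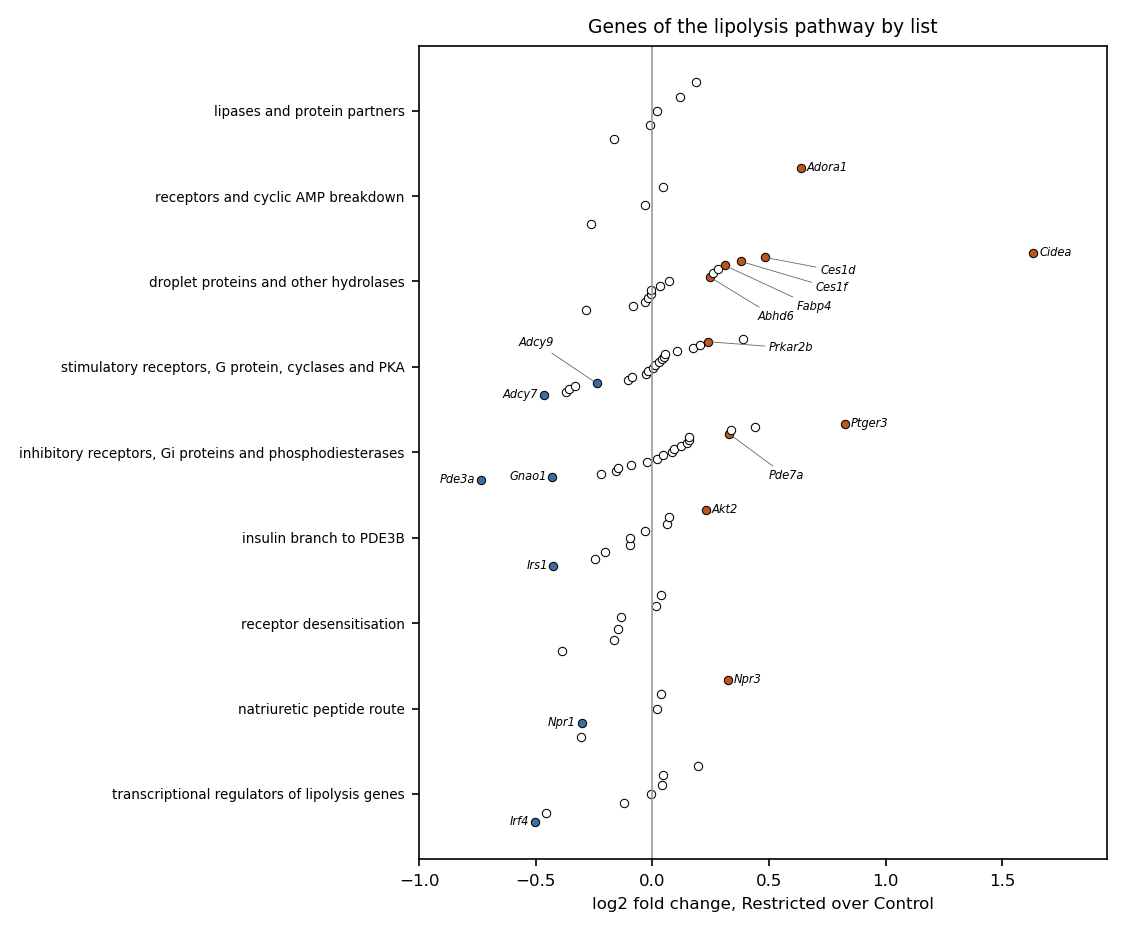
Each point is a gene of the pathway lists, placed by its log2 fold change (x axis, Restricted over Control) and by list (y axis), and filled where the adjusted p was under 0.05. Cidea at 1.63, Ptger3 at 0.83 and Adora1 at 0.64 lie furthest to the right among the filled points, and Pde3a at −0.74 furthest to the left.

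On the insulin branch that activates PDE3B, 1 of 9 genes was called higher and 1 lower, against 6.31% and 7.29% of all genes. Irs1, the insulin receptor substrate, averaged 30.3 ± 4.66 CPM in Restricted and 39.9 ± 4.89 CPM in Control libraries (log2 fold change −0.42, adjusted p = 0.00495), and −0.47 in the 14 libraries (adjusted p = 0.0271). Akt2, the kinase downstream, was at 0.23 (adjusted p = 0.0461), a call lost in 15 of the 20 fits that leave out 1 library, although the value stayed at 0.21 to 0.26 (adjusted p up to 0.0979). Irs2 and Akt1, with log2 fold changes of −0.24 and −0.097, did not pass. Of 6 genes that desensitise receptors, 0 were called by edgeR with the contamination mark in the model, against 13.6% of all genes. An unadjusted p under 0.05 was found for 3 of the 6, and for 4517 of all 15986 genes. The 3 were Arrb1 and Arrb2, the arrestins, at −0.16 and −0.13 on the log2 scale, and the receptor kinase Grk2 at −0.15. Rgs2, a regulator of G protein signals, was at −0.39 (adjusted p = 0.183). Other fits called up to 2 of the 6: DESeq2 and edgeR with a minimum count of 50 called Arrb1, edgeR without the mark called Arrb1 and Grk2, edgeR with the muscle index called Grk2, and edgeR with the epididymis index called Rgs2.

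On the natriuretic peptide route, which acts through cyclic GMP, 1 of 5 genes was called higher and 1 lower, against 6.31% and 7.29% of all genes. Npr1, the receptor that makes cyclic GMP, averaged 64.0 ± 11.5 CPM in Restricted and 74.5 ± 7.49 CPM in Control libraries (log2 fold change −0.30, adjusted p = 0.0276). Npr3, the receptor that clears the peptides, averaged 1144 ± 181 CPM in Restricted and 891 ± 126 CPM in Control libraries (log2 fold change 0.33, adjusted p = 0.0376). The call of Npr1 was lost in 3 and that of Npr3 in 9 of the 20 fits that leave out 1 library, over which the log2 fold change stayed at −0.34 to −0.24 for Npr1 (adjusted p up to 0.0732) and at 0.30 to 0.36 for Npr3 (up to 0.0826). In the 14 libraries it was −0.23 for Npr1 (adjusted p = 0.198) and 0.35 for Npr3 (adjusted p = 0.113). Prkg1, the kinase that cyclic GMP activates, was at −0.31 (adjusted p = 0.175) and Npr2 at 0.036.

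Of 7 transcription factors known to act on lipolysis genes, 1 was called lower and 0 higher, against 7.29% and 6.31% of all genes. Irf4, which in mice favours the expression of Pnpla2 and Lipe during fasting, averaged 13.0 ± 2.82 CPM in Restricted and 17.2 ± 3.11 CPM in Control libraries (log2 fold change −0.50, adjusted p = 0.0113), and was at −0.46 in the 14 libraries (adjusted p = 0.0959). Irf4 is also a gene of immune cells, whose macrophage markers were lower in Restricted libraries, and their part in its level was not tested. Pparg, the master regulator of adipocytes, was at 0.20 (adjusted p = 0.101), Egr1 at −0.46 (adjusted p = 0.243) and the glucocorticoid receptor Nr3c1 at −0.12 (adjusted p = 0.270).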

How the data were processed

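PolyA RNA-seq libraries of eWAT were made with the Tecan Universal Plus kit and read as 52-bp pairs, per the labels' protocols, whose extraction text names QUAD where the tissue label says eWAT. The authors deposited whole-number counts per gene, unscaled as far as the values show, with a gene length in bases. Per the submitters' processing notes, STAR, Salmon, bcl2fastq 4.0.3 and the build GRCm38 were used, with no role stated; which tool counted, on which annotation and strand, is not given in the sources used here. Symbols were taken by gene identifier (55141 of 55401 genes).

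Counts were tested two-sided by edgeR 4.0.16 under R 4.3.3, after filterByExpr (minimum count 10) and TMM scaling, with a quasi-likelihood fit of contamination mark and diet, adjusted over 15986 genes at 0.05. CPM values are scaled to the tested total times the TMM factor; marker sums and indices (mean log2 CPM, prior count 2) use the plain total. SE is the log2 fold change divided by the root of F. At this depth the biological coefficient of variation, 0.179, outweighs counting error for all 9 genes. Alternatives were DESeq2 1.42.0, limma 3.58.1 (voom with quality weights), other scaling and filters, other covariates and subsets of libraries. The steps were tested on simulated data. Tables and figures were made with matplotlib 3.10.9, pandas 2.3.3 and numpy 2.4.6 in Python 3.11.15.

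The 9 genes, the lists and the tests were chosen with earlier results of these data known. Named are the 9 genes, up to 4 genes of smallest p per pathway list, and the 3 genes most like each of the 3 of the 9 genes with the smallest p (r over 20 libraries); Ces1f, Vwf, Tek and the other genes given outside this rule were chosen after their values were seen. Replicate numbers were not taken as pairs.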

Additional observations from a re-analysis of the deposited data

Results flagged for a closer look

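Single libraries stood far from the rest of their diet in 3 of 18 groups of 10 (9 genes in 2 diets); chance alone flags about 1 in 20 groups. Pnpla2 was at 4038 CPM in Restricted 10, the highest of the 20 libraries, where the other Restricted libraries reached 3241 CPM. Mgll was at 2547 CPM in Restricted 1, a library with muscle transcripts, and at 2052 CPM in Control 7, each the highest of its diet. Adora1 was not among them: its 2 highest Restricted libraries, Restricted 10 and Restricted 1, lay close to each other at 225.7 and 218.6 CPM.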

How the results depend on the processing

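By diet, Adora1 kept its direction in every alternative run and missed the threshold in libraries marked No alone. The number of the 9 genes called by diet was 1 in most alternatives, 2 with DESeq2 or the muscle index as a term (Adrb3 added), 0 in libraries marked No alone, and 1 to 2 when each library was left out (2 without Control 3). Genes called by diet, 2173 of 15986, numbered 1032 with the germ cell index in place of the mark, 1445 in the 17 libraries with an RNA integrity number and 392 with that number as a term, 1441 with the adipocyte index, 927 in the 14 libraries without plain muscle transcripts, 400 within the mark No and 239 within the mark Yes; leaving out each library gave 1506 to 2274. With a replicate block it was 1388 (9 of the 81 other pathway genes, 11.1% against 8.68% of all genes), with Adora1 at 0.59 (adjusted p = 0.0100), Adrb1 at 0.037 and, by mark, Mgll at 0.010, Abhd5 at −0.060, Adrb3 at 0.079 and Adora1 at −0.070. Same-numbered libraries did not deviate together (r over 0.1 in 0 of 10 pairs, −0.096 to 0.093, and 0 libraries correlated best with their own number). Genes called for the product of mark and diet were 1 with DESeq2, 5 in the 14 libraries and 0 to 1 without each library.

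Signs that turned all belonged to differences that did not pass. By diet, Abhd5 was at 0.0038 with DESeq2, 0.0034 with RLE factors, 0.072 with the integrity number, 0.054 in the same 17 libraries and 0.0055 in libraries marked No. Lipe was at −0.025 with limma-voom, −0.036 with the adipocyte index, −0.10 in the 14 libraries, −0.090 in libraries marked No and −0.067 without Restricted 1 and 10. Mgll was at −0.058 in the 14 libraries, −0.016 in libraries marked No and −0.030 without Restricted 1 and 10. Adrb1 was at 0.35 with limma-voom, 0.38 with the adipocyte index, 0.017 with the integrity number, 0.19 in the same 17 libraries, 0.033 in the 14 libraries, 0.58 in libraries marked Yes and 0.10 without Restricted 1 and 10. Leaving out each library gave −0.036 to 0.066 for Lipe, −0.0069 to 0.19 for Mgll, −0.13 to 0.059 for Abhd5 and −0.33 to 0.18 for Adrb1. By mark, Adora1 was at −0.0015 with DESeq2, −0.0013 with RLE factors, −0.014 without a filter and −0.044 in the 14 libraries, where Abhd5 was at −0.086 and G0s2 at 0.050. Leaving out each library gave, by mark, −0.13 to 0.067 for Mgll, −0.044 to 0.14 for Abhd5, −0.080 to 0.025 for G0s2 and −0.099 to 0.039 for Adora1. The causes of these shifts were not tested; the subsets also hold fewer libraries, and Adrb1, with 78 to 542 counts per library, is the least precisely counted of the 9 genes.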

Other observations

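Among adipocyte markers outside the lipolysis pathway, Lep, which encodes leptin, averaged 1500 ± 348 CPM in Restricted and 1065 ± 230 CPM in Control libraries (SD, n = 10 each; log2 fold change 0.50, edgeR, adjusted p = 0.0292). Acvr1c, a receptor of activins that is known to restrain lipolysis in mouse fat, averaged 114 ± 20.3 CPM in Restricted and 146 ± 25.02 CPM in Control libraries (log2 fold change −0.49, adjusted p = 0.00165). Adipoq (0.18), Lpl (0.19) and Cfd (−0.28) did not pass. Of the markers of brown or beige adipocytes, Cox8b, a subunit of cytochrome oxidase, averaged 19.8 ± 10.2 CPM in Restricted and 9.64 ± 2.19 CPM in Control libraries (log2 fold change 1.05, adjusted p = 0.00875), Ppargc1a did not pass (−0.036), and Ucp1, Dio2 and Elovl3 were too low to be tested. These genes were named after their values were seen. Muscle transcripts were plain in 6 of the libraries, and their part in the level of Cox8b was not tested.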
